A study of Mus musculus with 6 samples.

Results

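Prox1, Zbtb20, Wfs1, Lhx2, Emx1, Emx2, Neurod1, Neurod6 and Mef2c, genes used to recognise hippocampal and pallial neurons, were followed in primary mouse neurons. The 9 genes were taken by symbol from the 50508 symbols in the files, and all 9 were above 0 in every library. The neurons came from C57Bl/6J mice and were transduced with a lentivirus. In Ctrl-dCas9A, the control, it carried sgLacZ, a guide RNA against the bacterial gene LacZ, and in Kcna1-dCas9A it carried sg19 (sgKcna1 in the labels), a guide to the promoter of the potassium channel gene Kcna1. Both vectors carried a Cas9 without nuclease activity, joined to the activator domain VP160 and driven by the Ef1alpha promoter, which does not limit expression to neurons, and each group had 3 libraries. For these cultures the sample labels give hippocampus as the region, while the paper's methods describe cortical neurons isolated from newborn pups, and the age given for the RNA differs between passages of those methods. The methods speak of independent repetitions for the experiments in general, but neither source says whether these libraries came from separate litters or cultures, so that p-values measure the spread between these libraries, which may be technical.

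The pallium is the dorsal part of the embryonic forebrain and forms both the neocortex and the hippocampus. Its progenitors carry the homeobox factors Emx1, Emx2 and Lhx2, and its excitatory neurons then switch on basic helix-loop-helix factors of the NeuroD family. Within the hippocampus, Prox1 marks granule cells of the dentate gyrus, Zbtb20 marks the hippocampal primordium and later its excitatory neurons, and Wfs1 marks pyramidal cells of the CA1 field. None of these genes is exclusive to one tissue. Zbtb20, Lhx2 and Emx2 are also used by astroglia and their progenitors, Prox1 by oligodendrocyte precursors and some interneurons, and Mef2c by neocortical neurons, microglia and endothelium.

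The deposited value of a gene is a whole number, and the values of a library sum to between 999047 and 999717, so that they were taken as rounded CPM. The depth of the libraries is unknown, and a difference of a few units at low values may be rounding or sampling. Libraries were made with a 3' kit that reads the end of each transcript, and values are compared here between groups, while the order of genes by value serves only to choose names. Kcna1, the targeted gene, read 16, 16 and 16 in the 3 control libraries, against 68, 47 and 65 with Kcna1-dCas9A. The groups were compared with limma on log2(value + 1) over the 19504 genes above 0 in at least 1 library, with Benjamini-Hochberg adjustment over all of them. With bulk RNA, fewer cells of a type and less RNA per cell cannot be told apart.

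Most of the 9 genes had lower values in Kcna1-dCas9A, Mef2c had higher values, and Zbtb20 had nearly the same mean in both groups. None passed the threshold. In limma, 0 of 9 had an adjusted p under 0.05, where 226 of all genes tested did (1.16%, 68 higher and 158 lower, a split that became 963 higher and 758 lower with median-of-ratios factors and 1226 higher and 832 lower with upper-quartile factors). At an unadjusted p under 0.05 from limma there were 5 of 9, against 23.2% of all genes tested. The same 5 genes had groups that did not overlap. Prox1, Lhx2, Emx2 and Neurod6 were lower in every Kcna1-dCas9A library than in any Ctrl-dCas9A library, and Mef2c was higher. Over all genes tested, groups did not overlap in 22.2%, with 13.3% lower and 8.98% higher in Kcna1-dCas9A, and among the 8050 genes whose mean reached 10 this share was 39.8%. Of the 8 regional genes at that level, 5 had separate groups. The median log2 fold change was -0.36 over the 9 genes and -0.02 over all genes tested. For a single gene, the exact two-sided permutation test of 3 libraries against 3 cannot go below p = 0.1, the value it gave for each of the 5.

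**Figure D1:**
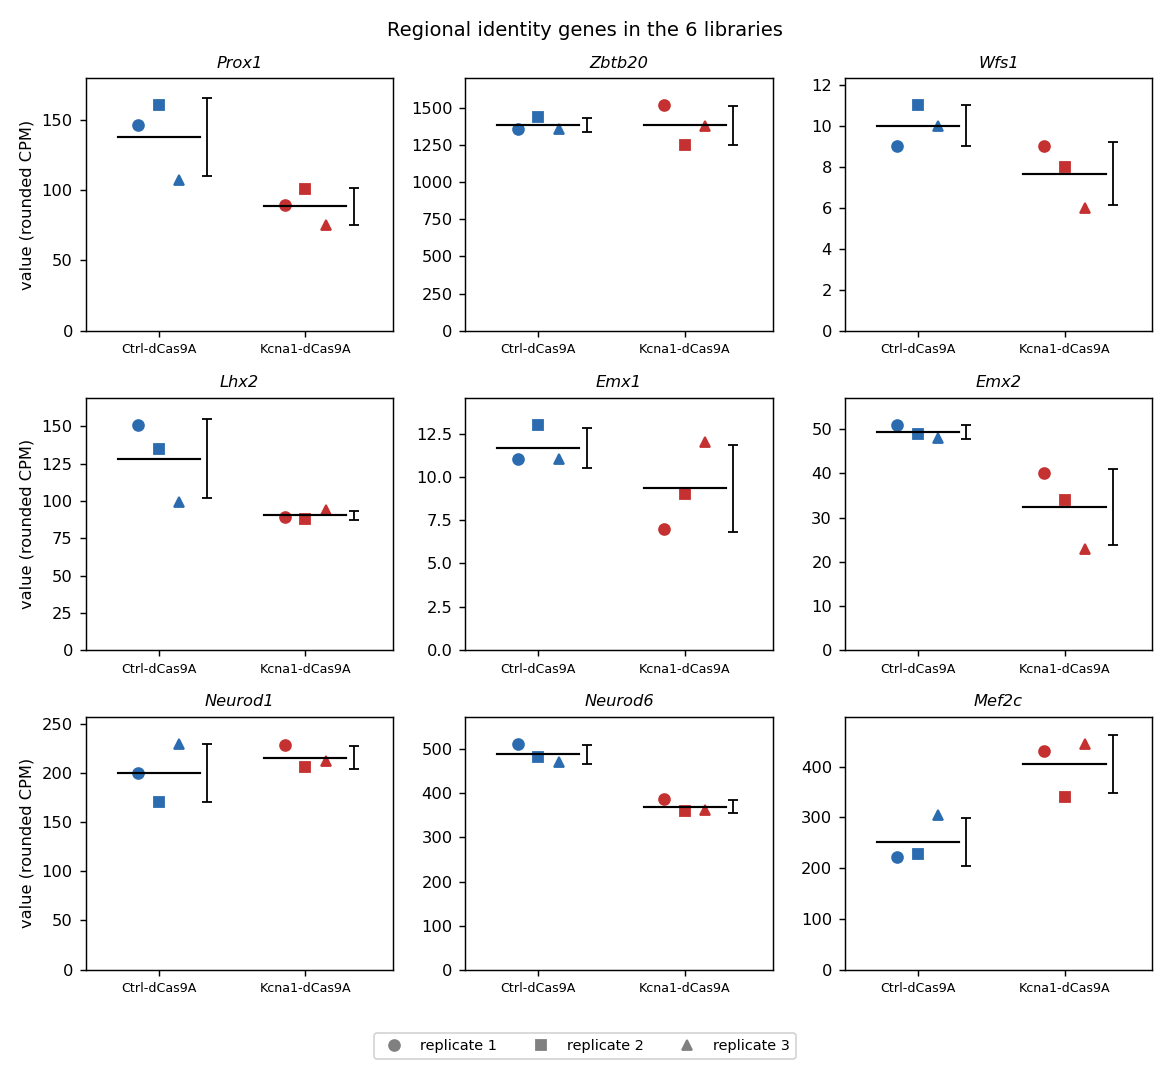
Value (rounded CPM, vertical axes, each from 0) of the 9 regional identity genes in each library of Ctrl-dCas9A (blue) and Kcna1-dCas9A (red). Horizontal lines are group means, bars are the mean ± SD of 3 libraries, and symbols give the replicate number. Groups are separate for Prox1, Lhx2, Emx2, Neurod6 and Mef2c and overlap or touch for the other genes.

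The position of 1 control library was checked. In all 5 genes with separate groups, Ctrl-dCas9A replicate 3 was the control closest to the Kcna1-dCas9A mean, by 1 rounded unit in Emx2. The same library was closest in 71.0% of the 3202 genes with separate groups whose mean reached 10. Without it, limma placed 4 of the 9 below the adjusted threshold, where 14.2% of the 19122 genes then tested did. These were Prox1 (adjusted p = 0.0351), Lhx2 (adjusted p = 0.0212), Neurod6 (adjusted p = 0.0259) and Mef2c (adjusted p = 0.032). Leaving out any other single library gave 0 of 9 and 0 genes in all.

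**Figure D2:**
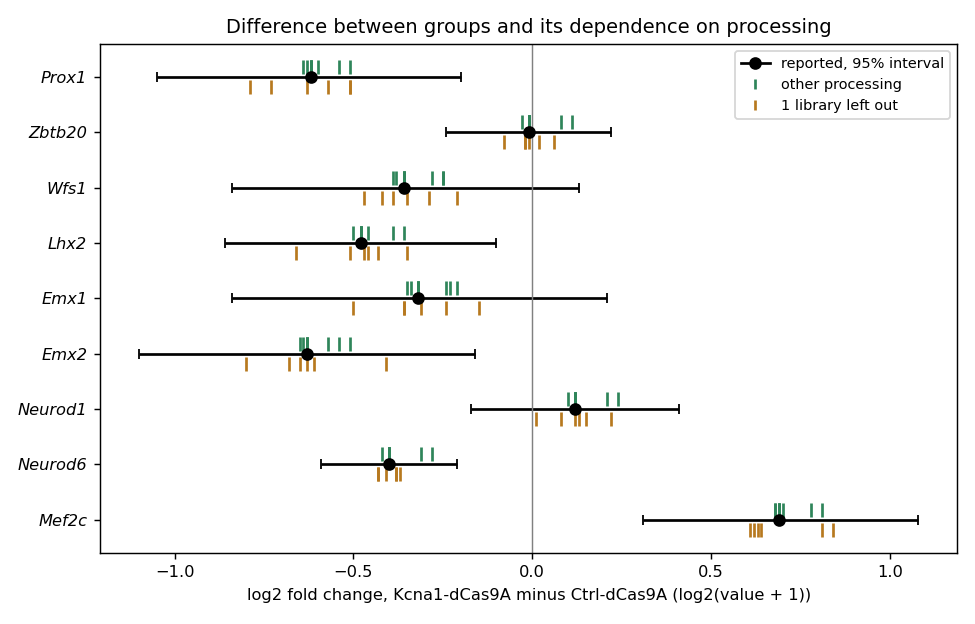
Log2 fold change of each gene, Kcna1-dCas9A minus Ctrl-dCas9A on the log2(value + 1) scale (horizontal axis), with its 95% interval from limma (black). Green ticks give the other processing settings and ochre ticks the fits with 1 library left out. The interval lies to the left of 0 for Prox1, Lhx2, Emx2 and Neurod6 and to the right for Mef2c, and Zbtb20 is the gene whose ticks fall on both sides of 0.

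The promoters of the 5 genes with separate groups are shown because the results turn on these members, although none of them passed the adjusted threshold. Each window runs from 250 bases before to 50 after a transcription start, is 300 bases long, and is taken from RefSeq for GRCm38.p6, the assembly also called mm10. All 9 genes have a window there, and for genes with several starts the first listed is shown. For Prox1 it is chr1:190170778-190171077 on the minus strand. For Lhx2 it is chr2:38339031-38339330 on the plus strand. For Emx2 it is chr19:59458440-59458739 on the plus strand. For Neurod6 it is chr6:55681214-55681513 on the minus strand. For Mef2c it is chr13:83503784-83504083 on the plus strand. Capitals mark letters of 3 motifs searched on both strands, which do not overlap in these windows. They are CAGATG, an E-box form of the kind bound by NeuroD factors, TAATTA, a core of homeodomain sites, and CTAAAAATA, a core of MEF2 sites.

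Prox1: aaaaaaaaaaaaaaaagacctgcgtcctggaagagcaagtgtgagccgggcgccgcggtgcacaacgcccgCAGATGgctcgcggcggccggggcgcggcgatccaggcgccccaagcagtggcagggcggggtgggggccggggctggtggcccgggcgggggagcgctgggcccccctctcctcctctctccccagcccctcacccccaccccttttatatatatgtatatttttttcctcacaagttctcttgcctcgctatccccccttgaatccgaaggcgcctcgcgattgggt
Lhx2: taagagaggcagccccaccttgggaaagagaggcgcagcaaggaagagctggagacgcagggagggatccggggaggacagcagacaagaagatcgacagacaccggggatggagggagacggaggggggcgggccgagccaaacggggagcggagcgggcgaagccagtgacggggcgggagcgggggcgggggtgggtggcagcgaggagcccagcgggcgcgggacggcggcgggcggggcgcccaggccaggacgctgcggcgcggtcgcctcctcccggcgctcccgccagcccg
Emx2: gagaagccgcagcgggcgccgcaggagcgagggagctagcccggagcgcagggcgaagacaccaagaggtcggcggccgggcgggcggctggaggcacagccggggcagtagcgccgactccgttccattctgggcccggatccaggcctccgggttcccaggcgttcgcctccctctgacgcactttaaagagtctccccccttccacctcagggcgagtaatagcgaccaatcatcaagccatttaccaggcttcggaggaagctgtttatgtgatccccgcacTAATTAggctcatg
Neurod6: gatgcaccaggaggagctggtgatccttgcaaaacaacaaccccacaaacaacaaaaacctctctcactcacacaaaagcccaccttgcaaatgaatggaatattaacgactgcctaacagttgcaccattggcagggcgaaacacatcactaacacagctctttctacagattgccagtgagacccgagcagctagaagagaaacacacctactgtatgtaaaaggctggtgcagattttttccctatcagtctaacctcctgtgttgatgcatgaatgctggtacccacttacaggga
Mef2c: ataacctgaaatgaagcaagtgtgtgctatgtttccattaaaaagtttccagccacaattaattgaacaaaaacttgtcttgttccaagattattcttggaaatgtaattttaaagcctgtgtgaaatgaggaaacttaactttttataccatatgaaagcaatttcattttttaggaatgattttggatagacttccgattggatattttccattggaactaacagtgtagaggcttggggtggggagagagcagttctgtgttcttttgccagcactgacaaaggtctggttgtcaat

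Of these windows, that of Prox1 held CAGATG and that of Emx2 held TAATTA, while those of Lhx2, Neurod6 and Mef2c held none of the 3. Of all 32851 RefSeq windows of this length, 17.2% held CAGATG, 5.3% held TAATTA and 0.5% held CTAAAAATA. The windows also differ in base composition. G and C make up 64.3% of the Prox1 window, 74.7% for Lhx2 and 64.3% for Emx2, against 46.3% for Neurod6 and 35.7% for Mef2c. At other listed starts, a window of Lhx2 held CAGATG and windows of Mef2c held CAGATG or TAATTA. A motif match is a description of the letters, not a bound site.

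Among the hippocampal markers, the groups overlapped for Zbtb20 and Wfs1 and were separate for Prox1, with lower values in Kcna1-dCas9A. Zbtb20, a zinc finger repressor needed for hippocampal fate, read 1359, 1441 and 1358 in the 3 control libraries, against 1516, 1250 and 1378 with Kcna1-dCas9A. Both the highest and the lowest value were in Kcna1-dCas9A. The means were 1386.0 ± 47.6 and 1381.3 ± 133 (SD, n = 3 each), and the log2 fold change was -0.01 (95% interval -0.24 to 0.22). Prox1, which maintains the identity of dentate granule cells, read 146, 160 and 107 in the 3 control libraries, against 89, 101 and 75 with Kcna1-dCas9A. The lowest control value was 6 above the highest Kcna1-dCas9A value. With median-of-ratios or upper-quartile factors the groups of Prox1 overlapped. The log2 fold change of Prox1 was -0.62 (SE, the standard error, 0.18, adjusted p = 0.0947 in limma), with means of 138 ± 27.5 and 88.3 ± 13 (SD, n = 3 each). Wfs1, which encodes an endoplasmic reticulum membrane protein, read 9, 11 and 10 in the 3 control libraries, against 9, 8 and 6 with Kcna1-dCas9A. The groups touched at 9, and the log2 fold change was -0.36 (95% interval -0.84 to 0.13, adjusted p = 0.34 in limma), or -0.21 without Kcna1-dCas9A replicate 3. At this level, a difference of the observed size cannot be told apart from the spread between libraries.

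Of the homeobox selectors of the pallium, Lhx2 and Emx2 were lower in Kcna1-dCas9A without overlap. Lhx2, a LIM homeobox factor that keeps the early telencephalon cortical, read 151, 135 and 99 in the 3 control libraries, against 89, 88 and 94 with Kcna1-dCas9A. The Kcna1-dCas9A libraries were close together, and Ctrl-dCas9A replicate 3 was 5 above the highest of them. The log2 fold change of Lhx2 was -0.48 (SE 0.16, adjusted p = 0.129 in limma). The share of Lhx2 in the sum of Lhx2 and its relative Lhx9 overlapped between groups (exact two-sided permutation test, p = 0.4). It was 87.5% ± 3.54 in Ctrl-dCas9A and 84.3% ± 2.85 in Kcna1-dCas9A (SD, n = 3 each). Emx2, needed for growth of the hippocampal primordium and dentate gyrus, read 51, 49 and 48 in the 3 control libraries, against 40, 34 and 23 with Kcna1-dCas9A. Here the controls were close together and the Kcna1-dCas9A libraries were spread. Its log2 fold change was -0.63 (SE 0.20, adjusted p = 0.117 in limma), which moved to -0.41 without Kcna1-dCas9A replicate 3 and to -0.80 without Kcna1-dCas9A replicate 1. Emx1, its relative in neocortical progenitors and excitatory neurons, read 11, 13 and 11 in the 3 control libraries, against 7, 9 and 12 with Kcna1-dCas9A. The groups of Emx1 overlapped, with a log2 fold change of -0.32 (95% interval -0.84 to 0.21), which was -0.15 without Kcna1-dCas9A replicate 1 and -0.50 without Kcna1-dCas9A replicate 3. The share of Emx2 in the sum of both Emx genes overlapped as well, at 80.9% ± 1.66 in Ctrl-dCas9A and 76.6% ± 9.92 in Kcna1-dCas9A (SD, n = 3 each, exact two-sided permutation test, p = 0.8).

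The NeuroD factors did not share a direction. Neurod6, a factor of differentiating pallial excitatory neurons, read 512, 484 and 471 in the 3 control libraries, against 388, 361 and 362 with Kcna1-dCas9A. The groups were 83 apart, while the values within a group spread by less than that. Its log2 fold change of -0.40 (SE 0.08, 95% interval -0.59 to -0.21) had the smallest p of the 9 genes, with an adjusted p = 0.0556 in limma. With median-of-ratios factors it was -0.31 (adjusted p = 0.0792 in limma) and with upper-quartile factors -0.28 (adjusted p = 0.153 in limma). Over the 15 alternatives the adjusted p of Neurod6 ranged from 0.0121, with no low-value filter, to 0.178, with no trend, and was under 0.05 in 5. Neurod1, which drives differentiation of dentate granule neurons, read 200, 170 and 229 in the 3 control libraries, against 228, 206 and 212 with Kcna1-dCas9A, inside the range of the controls. Its log2 fold change was 0.12 (95% interval -0.17 to 0.41), and it was 0.01 without Ctrl-dCas9A replicate 2, 0.22 without Ctrl-dCas9A replicate 3 and 0.08 without Kcna1-dCas9A replicate 1. Neurod2, a close relative expressed in the same excitatory neurons, read 558, 560 and 680 in the 3 control libraries, against 601, 546 and 565 with Kcna1-dCas9A, again overlapping. Neurod4 was listed at 1 in Kcna1-dCas9A replicate 3 and at 0 elsewhere. Neurod6 made up 40.3%, 39.9% and 34.1% of the summed NeuroD values in Ctrl-dCas9A and 31.9%, 32.4% and 31.8% in Kcna1-dCas9A. A share of this kind is free of the library scaling, and it did not overlap between groups (exact two-sided permutation test, p = 0.1, the smallest possible).

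Mef2c was the member with higher values in every Kcna1-dCas9A library, while Mef2a and Mef2d had lower values. Mef2c, a MADS box factor of postmitotic excitatory neurons, read 221, 227 and 305 in the 3 control libraries, against 431, 340 and 444 with Kcna1-dCas9A. Its means were 251 ± 46.9 and 405 ± 56.7 (SD, n = 3 each), a ratio of 1.61. Mef2c had a log2 fold change of 0.69 (SE 0.16, 95% interval 0.31 to 1.08, adjusted p = 0.0595 in limma), and the adjusted p was 0.0141 with median-of-ratios factors and 0.00691 with upper-quartile factors. Over the 15 alternatives it ranged from 1.58e-06, with no low-value filter, to 0.227, without Ctrl-dCas9A replicate 2, and was under 0.05 in 6. Mef2a, a broadly expressed relative, was listed at 77, 73 and 60 against 52, 42 and 47, with a log2 fold change of -0.56 (adjusted p = 0.0672 in limma). Mef2d, another, was listed at 62, 56 and 54 against 39, 45 and 43, with a log2 fold change of -0.43 (adjusted p = 0.0769 in limma). Mef2b was listed at 0 in all 6 libraries. Mef2c made up 61.4%, 63.8% and 72.8% of the summed MEF2 values in Ctrl-dCas9A and 82.6%, 79.6% and 83.1% in Kcna1-dCas9A. The shares did not overlap (exact two-sided permutation test, p = 0.1). This follows from the values above, because Mef2c was higher and Mef2a and Mef2d were lower in every Kcna1-dCas9A library. The share is therefore no separate support. The signs of Mef2a, Mef2c and Mef2d were the same under all 15 alternatives run.

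**Figure D3:**
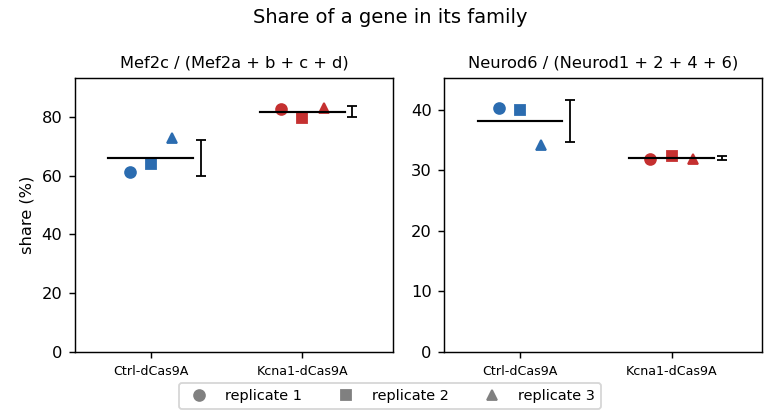
Share (%, vertical axes from 0) of Mef2c in the summed MEF2 values (left) and of Neurod6 in the summed NeuroD values (right) in each library, with group means and mean ± SD of 3 libraries. The Mef2c share is 79.6% or more in Kcna1-dCas9A and 72.8% or less in Ctrl-dCas9A, and the Neurod6 share is 32.4% or less in Kcna1-dCas9A and 34.1% or more in Ctrl-dCas9A.

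The label of the tissue was checked with lists of regional genes. Both descriptions, cortex and hippocampus, are pallial. Of 19 further factors of the pallial programme, 18 were above 0 in at least 1 library and 13 had a mean that reached 10, with the highest values for Nfix, Nfia and Nfib, nuclear factor I proteins of neurons and glia. The progenitor factor Neurog1 was at 0 everywhere. Of 17 neocortical layer markers, all were above 0 and 14 had a mean of at least 10. The 3 with the highest means were Lmo4, a LIM-only protein, Bcl11b, a factor of deep-layer projection neurons that hippocampal neurons also use, and Crym, a thyroid hormone binding protein.

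Of 18 markers of hippocampal fields other than the 9 genes, 16 were above 0 and 6 had a mean of at least 10. The highest were Nectin3, a cell adhesion molecule, Pou3f1, a POU factor, and Grik4, a kainate receptor subunit enriched in CA3, and the neocortex also holds some of them. Lct and Spink8 were at 0 everywhere. The 6 dentate gyrus markers besides Prox1 had no member with a mean of at least 10, and their values summed to between 11 and 16 in every library. Markers of other origins were also counted. Of 16 subpallial genes, 3 had a mean of at least 10, Dlx1 and Lhx6 among them, and Gsx2 and Lhx8 were at 0. Of 18 genes of the diencephalon, midbrain, hindbrain or spinal cord, none had a mean of at least 10 over the 6 libraries. Tcf7l2 and Otx2 were highest there, Sim1 and En2 tied next, and 10 were at 0 everywhere (En1, Pax2, Gbx2, Barhl1, Atoh1, Hoxa2, Hoxb8, Lmx1b, Foxb1 and Otp). Zbtb20 and Prox1, genes of the hippocampus, and markers of neocortical layers were thus above 0 in the same libraries. No dissected cortex or hippocampus was analysed here as a reference, and with these values the 2 descriptions of the cultures cannot be told apart.

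**Figure D4:**
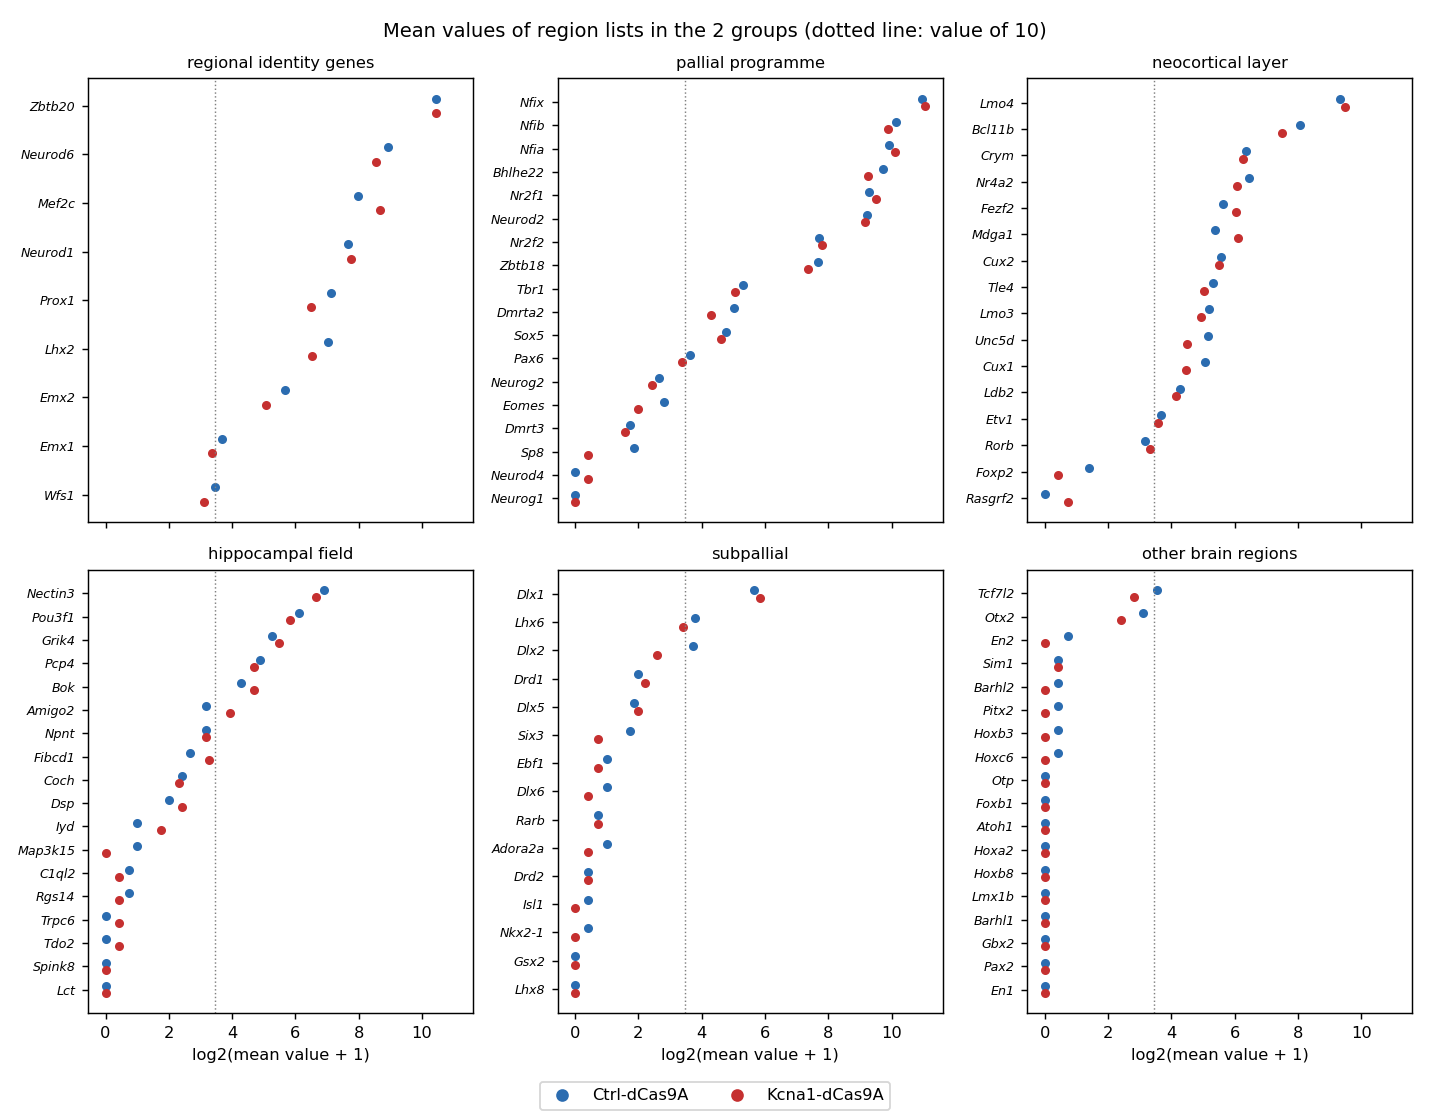
Mean value of each gene in Ctrl-dCas9A (blue) and Kcna1-dCas9A (red) as log2(mean value + 1) (horizontal axes), for the 9 regional identity genes and 5 lists of regional genes. A few genes of the lists are not shown, and the dotted line marks a value of 10. Pallial and neocortical genes lie mostly to its right, hippocampal field genes on both sides, and genes of other brain regions to its left or at 0, apart from Tcf7l2, whose Ctrl-dCas9A mean lies just to the right.

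The pallial and regional lists were compared between groups as whole lists. In none of them did a gene have an adjusted p under 0.05 in limma. At an unadjusted p under 0.05, which 23.2% of all genes tested reached, the pallial programme had 6 genes lower and 0 higher, the neocortical layers 4 lower and 2 higher, and the hippocampal fields 1 lower and 3 higher. The subpallial genes had 1 lower and the genes of other regions 2 lower, with 0 higher in either list. The median log2 fold change was -0.25 for the pallial programme, -0.12 for the neocortical layers, 0.11 for the hippocampal fields, -0.33 for the subpallial genes and -0.33 for genes of other regions, against -0.02 over all genes tested. Over genes whose mean reached 10 it was -0.25, -0.18, 0.04 and -0.33 for the first 4 of these lists, against -0.06 for all genes at that level, and no gene of other regions reached it. The examples that follow were named after their values were seen. Bhlhe22, a factor of cortical area identity, read 903, 893 and 747 in the 3 control libraries, against 615, 637 and 569 with Kcna1-dCas9A (log2 fold change -0.48, adjusted p = 0.0556 in limma). Bcl11b was listed at 292, 279 and 224 against 191, 182 and 162 (log2 fold change -0.56, adjusted p = 0.0556 in limma). Fezf2 and Mdga1, of the same list of layer markers, had higher values (log2 fold changes 0.42 and 0.75, adjusted p = 0.12 and 0.0865 in limma). In Bhlhe22 and Bcl11b, as in Prox1 and Lhx2, Ctrl-dCas9A replicate 3 was the lowest control. Amigo2, an adhesion molecule enriched in CA2, was listed at 8, 8 and 8 against 12, 13 and 18 (log2 fold change 0.75, adjusted p = 0.0759 in limma). The other CA2 markers of the list, Pcp4, Rgs14 and Map3k15, had negative log2 fold changes (-0.16, -0.19 and -0.86), with groups that overlapped.

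Several of the 9 genes are also used by glia, and glial markers differed between the groups. The 10 astrocyte markers summed to between 961 and 1069 in Ctrl-dCas9A and between 702 and 718 in Kcna1-dCas9A, and 3 fell past the threshold in limma, where 1.16% of all genes passed it in either direction. These were Aqp4, a water channel (log2 fold change -1.42, adjusted p = 0.0486), Sox9, a glial factor (-0.56, adjusted p = 0.0496), and Aldoc, a glycolytic enzyme of astrocytes (-0.54, adjusted p = 0.0496). The groups overlapped for 4 of the 10, which were Gfap (log2 fold change -0.02), Aldh1l1 (-0.01), S100b (0.32) and Fgfr3 (-0.27). The 7 radial glia markers summed to between 878 and 1275 in Ctrl-dCas9A and between 499 and 598 in Kcna1-dCas9A. Of these, Fabp7, a fatty acid binding protein of progenitors (-2.09, adjusted p = 0.0486), and Hes5, a Notch target (-0.83, adjusted p = 0.0422), fell past it. The 8 cell cycle genes summed to between 121 and 126 against 71 to 75, with 0 past the threshold and 7 lower at an unadjusted p under 0.05, against 23.2% of all genes in either direction. Lhx2 and Emx2, which belong to dividing pallial progenitors and astroglia, thus had lower values in the same libraries in which these sums were lower. Zbtb20, which astrocytes also use, overlapped between the same libraries. The part of the glial markers in the values of Lhx2 and Emx2 was not tested.

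The 7 oligodendrocyte lineage markers summed to between 66 and 98 in Ctrl-dCas9A and between 40 and 44 in Kcna1-dCas9A. Of them Olig2, a factor of oligodendrocyte precursors, fell past the threshold (log2 fold change -1.05, adjusted p = 0.0497 in limma). Mbp, a myelin protein of the same list, had higher values, at 3, 3 and 2 against 7, 4 and 7 (log2 fold change 0.91, adjusted p = 0.113 in limma). Prox1 is also made by that lineage, and its part in the Prox1 values was not tested. The 10 microglia markers summed to between 23 and 28 in Ctrl-dCas9A and between 55 and 75 in Kcna1-dCas9A, and C1qa, a complement subunit, rose past the threshold (1.61, adjusted p = 0.0486 in limma). P2ry12 and Tmem119, markers that define resident microglia, were at 0 in all 6 libraries. Mef2c is also used by microglia, and its values were 340 to 444 in the libraries in which these markers were higher. The part of microglia in the Mef2c values was not tested. The 6 vascular markers summed to between 4 and 10 in every library.

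Neuronal markers overlapped between the groups as sums. The 6 excitatory neuron markers summed to between 895 and 974 in Ctrl-dCas9A and between 907 and 1079 in Kcna1-dCas9A, with 0 past the threshold and 2 higher at an unadjusted p under 0.05 in limma, against 23.2% of all genes in either direction. These were Camk2a, a synaptic kinase (88, 93 and 124 against 146, 145 and 175), and Slc17a7, a vesicular glutamate transporter of forebrain excitatory neurons (33, 29 and 41 against 47, 54 and 57). As with Mef2c, both were higher in every Kcna1-dCas9A library and Ctrl-dCas9A replicate 3 was the highest control. The 7 inhibitory neuron markers summed to between 210 and 228 against 202 to 242, and Pvalb was at 0 everywhere. Of them Gad1 and Slc32a1, for the synthesis and vesicular loading of GABA, had lower values at an unadjusted p under 0.05, and Npy, a neuropeptide, had higher values. The 5 Cajal-Retzius cell markers, which could come from the hippocampal fissure or the cortical surface, summed to between 72 and 99 against 75 to 89.

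**Figure D5:**
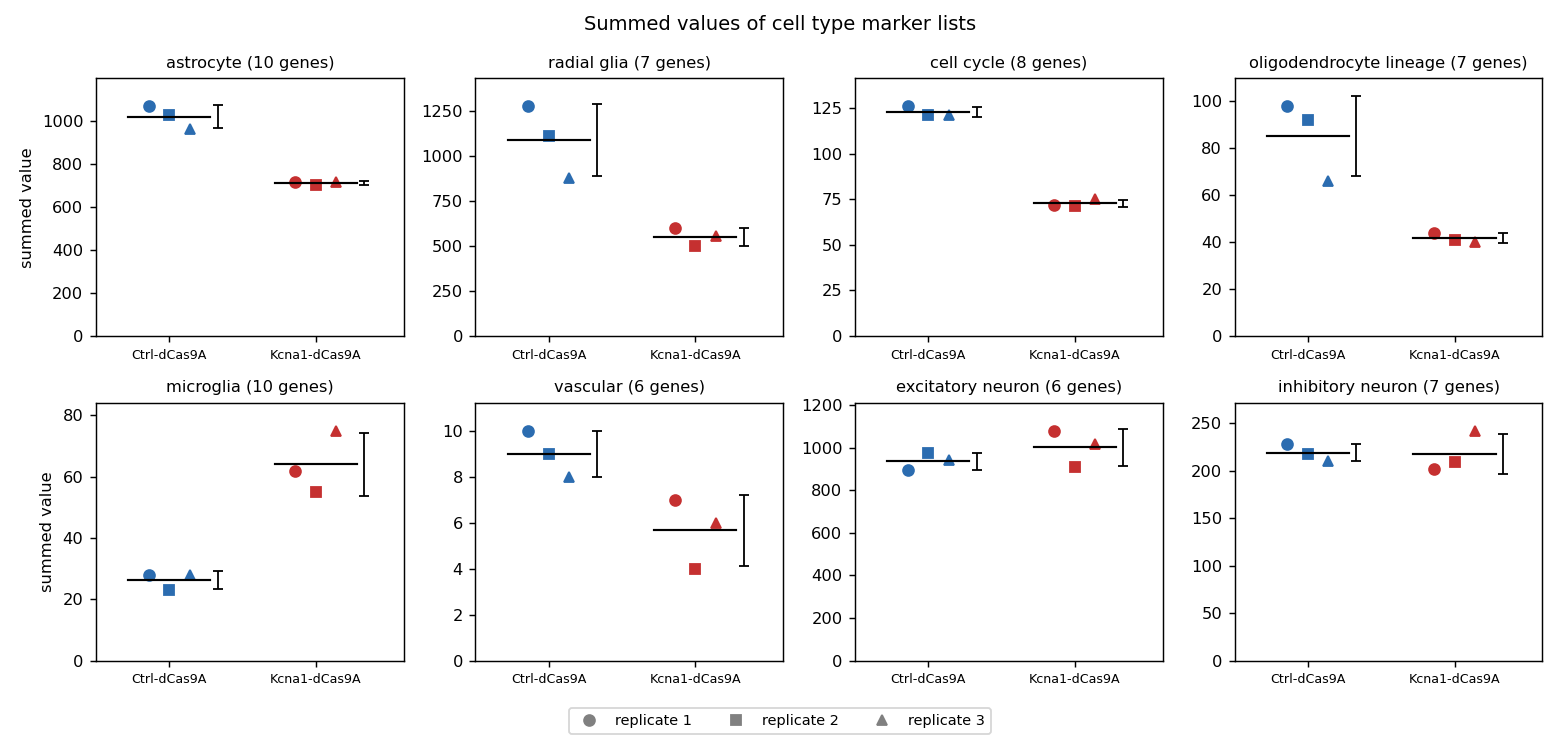
Summed value (vertical axes, each from 0) of 8 lists of cell type markers in each library, with group means and mean ± SD of 3 libraries. Astrocyte, radial glia, cell cycle, oligodendrocyte lineage and vascular sums are lower and microglia sums higher in every Kcna1-dCas9A library, and the neuronal sums overlap.

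Genes with a profile like that of Neurod6, the member with the smallest p, were sought among 8049 other genes whose mean reached 10. Likeness was the root mean square difference of log2(value + 1), centred per gene, over the 6 libraries. The closest were Midn (difference 0.028), Rragd (0.031) and Nol7 (0.036), with log2 fold changes of -0.41, -0.39 and -0.40. Midn, which encodes midnolin, read 187, 182 and 179 in the 3 control libraries, against 141, 132 and 138 with Kcna1-dCas9A. With 6 libraries, many genes can share such a profile. RefSeq lists other genes that overlap Prox1, Zbtb20 and Lhx2, and those matched by symbol in the files had values of at most 4 in any library, Prox1os among them. It also lists 2 that overlap Mef2c, which were not matched by symbol and were not analysed here.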

How the data were processed

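RNA of 6 libraries was sequenced with the QuantSeq 3' kit. The authors deposited a whole-number score per gene symbol, read here as rounded CPM, because the totals of all libraries are nearly equal and lie between 999047 and 999717. The submitters' processing notes name STAR 2.7, featureCounts, DESeq2 and mm10, whereas the paper's methods name Bowtie2 and mm9 for these libraries. Which of these made the files, and the annotation, scaling and use of strand in counting, are not given in the sources used here. Of the 50508 symbols, 34696 are in RefSeq for GRCm38.p6.

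The members and lists were chosen with earlier results of these data known. Genes above 0 in at least 1 library were fitted with limma 3.58.1 in R 4.3.3 (lmFit, eBayes with an intensity trend, group as the only factor) on log2(value + 1), a scale that makes changes at low values look smaller, and p-values were adjusted by Benjamini-Hochberg over all genes fitted, with a threshold of 0.05. The fit was tested on simulated data. Named were the members, Kcna1, and from each list the genes past the threshold, those at 0 everywhere and the 3 highest, plus the 3 genes most like the member with the smallest p. The other genes named (Mef2a, Mef2d, Neurod4, Lhx9, Bhlhe22, Fezf2, Mdga1, Amigo2, Pcp4, Rgs14, Map3k15, Slc17a7, Npy, Gfap, Aldh1l1, S100b, Fgfr3, Mbp, En2, Gm42418 and Prox1os) were chosen after their values were seen. Not every gene that the rule names is reported here. Promoter windows were searched with Python 3.11.15. Alternatives were other pseudocounts, filters and scalings, no trend, a replicate block and each library left out.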

Additional observations from a re-analysis of the deposited data

How the results depend on the processing

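All alternatives were listed before these fits were run, with earlier results of these data known. The count of the 9 genes past an adjusted p of 0.05, 0 as reported, was 1 with a pseudocount of 0.1 (Neurod6), 2 where a mean of 1 was required (Neurod6, Mef2c), 1 with median-of-ratios factors and 1 with upper-quartile factors (Mef2c each), 3 with Gm42418, a gene that holds a large share of every library, left out (Prox1, Neurod6, Mef2c), and 5 with no low-value filter. In the last fit most gene variances are 0, and limma warned that its moderation is then unreliable. It was 0 with a pseudocount of 5, no trend or the replicate block, and ranged from 0 to 4 with 1 library left out. Over all genes, the count of 226 was 627 and 475 with pseudocounts of 0.1 and 5, 1543 where a mean of 1 was required, 2405 with no filter, 1721 with median-of-ratios and 2058 with upper-quartile factors, 1771 without Gm42418, 201 with no trend, 0 with the replicate block and from 0 to 2711 with 1 library left out. The cause was not tested.

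The number of the 9 genes with separate groups, 5 as reported, was 4 with median-of-ratios and 4 with upper-quartile factors, where Prox1 overlapped. With Gm42418 left out it was 6. Leaving out a library cannot undo a separation, so those counts, of 5 or 6, could not fall below the reported one. Direction was kept under all 15 alternatives for each gene but Zbtb20, whose log2 fold change of -0.01 turned to 0.08 with median-of-ratios and 0.11 with upper-quartile factors, and ranged from -0.08 to 0.06 with 1 library left out, positive without Ctrl-dCas9A replicate 2 (0.02) and Kcna1-dCas9A replicate 2 (0.06). Upper-quartile factors moved the median log2 fold change of genes whose mean reached 10 from -0.059 to 0.056.

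The replicate numbers are not said to pair the libraries. Same-numbered libraries deviated from their group means with correlations across 8050 genes of 0.014, 0.114 and 0.154, and not every library correlated best with its own number. With the replicate block, the adjusted p from limma was 0.111 for Neurod6 and 0.112 for Mef2c. The depth is unknown, and at the low values of Wfs1 and Emx1 a few rounded units make up much of the difference.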
